A study of Arabidopsis thaliana with 11 samples.

Results

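The loci described here are the 122 of 28094 in the count files whose identifier begins with ATMG, the prefix of Arabidopsis thaliana loci encoded in the mitochondrial genome. They were chosen by identifier and not by a measured value, though earlier results of these data were known when the choice was made. The series profiled polyA-selected RNA of wild-type plants grown in soil in a greenhouse without treatment and sampled at growth stage 6.0, when the first flower is open. Flower buds gave 2 samples, both sequenced on a HiSeq2000. Leaves gave 4 samples, of which leaf 3 and 4 were sequenced on a GA II, an older Illumina instrument, and leaf 1 and 2 on the HiSeq2000. Each HiSeq2000 sample had a multiplex run and a HiSeq run, and leaf 1 had a second multiplex library. The labels call that library replicate 1b, a technical replicate of 1a, so both were summed as leaf 1, which makes 11 libraries of 6 samples. The labels do not say that numbered samples came from separate plants, so the spread that each p-value is set against may be a technical one.

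Runs of a sample were summed, which gave 217267500 and 218477506 counted read pairs in the flower bud samples, 35302492 and 37682650 in leaf 3 and 4, and 225332585 and 271060494 in leaf 2 and 1. The tissue labels were checked on AP3, a petal and stamen identity gene, which had 48680 and 36024 pairs in flower bud 1 and 2, against 17, 6, 0 and 0 pairs in leaf 1 to 4.

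The plant mitochondrial genome encodes part of the respiratory chain, namely subunits of complex I (nad genes), complex III (cob), complex IV (cox genes) and the ATP synthase (atp genes). It also encodes proteins of cytochrome c maturation (ccm genes) and some ribosomal proteins (rpl and rps genes), while most mitochondrial proteins are encoded in the nucleus. In plant mitochondria a polyA tail marks an RNA for decay, so mature mitochondrial transcripts are largely unpolyadenylated and polyA selection leaves a residue of them. Levels below are therefore residual, and less RNA per cell cannot be told apart from fewer mitochondria or fewer cells of a type. Most mitochondrial loci have a near-identical copy in an insertion of mitochondrial DNA in nuclear chromosome 2 of this species, and how the authors assigned reads that match both is not given in the sources used here. RefSeq entries paired 28 of the 122 loci with a named gene, 16 through a note on a nuclear copy and 12 through an exact match of length alone. The other 94 are called by identifier and enter no role. The planned role lists held some of them, so the roles below cover named loci only and may be incomplete. The median length of the 122 was 442.5 bases, against 1311 bases over all loci.

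Mitochondrial loci took 0.00258% and 0.00645% of counted pairs in flower bud 1 and 2, and 0.00188%, 0.00645%, 0.00410% and 0.00541% in leaf 1 to 4. The tissues overlapped: leaf 3 and 4 lay between both bud samples, leaf 1 lay below them and leaf 2 level with flower bud 2. The mean share was 0.00451% ± 0.00273 in flower buds (SD, n = 2) and 0.00446% ± 0.00197 in leaves (SD, n = 4). The mean log2 share was 0.011 higher in flower buds (exact two-sided permutation test over 15 arrangements of the samples, p = 0.933). So few arrangements keep the smallest possible p of this test above the cutoff used for calls below. The test therefore cannot decide whether the tissues differed.

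**Figure D1:**
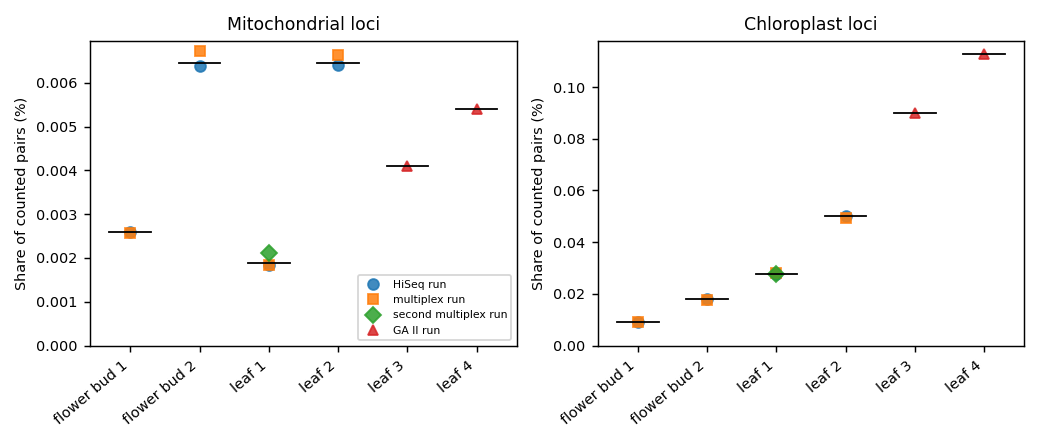
Share of counted pairs (%) on mitochondrial loci (left) and chloroplast loci (right) in each sample; symbols are single runs and bars are the runs of a sample summed. The mitochondrial share ran from 0.00188% in leaf 1 to 0.00645% in flower bud 2 and leaf 2, and runs of a sample lay close together.

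The samples of a tissue differed more than the tissues did. The share in flower bud 2 was 2.496 times that in flower bud 1, and the share in leaf 2 was 3.43 times that in leaf 1. Exact 95% intervals, which cover counting error only, were 0.00252% to 0.00265% in flower bud 1 and 0.00634% to 0.00655% in flower bud 2. Of 74 loci with 40 or more pairs over the HiSeq2000 samples, 70 had a higher CPM (pairs for each 1000000 counted pairs of the sample) in flower bud 2 than in flower bud 1, and 73 had more in leaf 2 than in leaf 1. The difference was thus shared by nearly all well-counted loci. Runs of a sample repeated it: flower bud 2 had 0.00672% in its multiplex run and 0.00640% in its HiSeq run, and flower bud 1 had 0.00257% and 0.00259%. Chloroplast loci moved the same way, at 0.0179% in flower bud 2 and 0.00904% in flower bud 1, and at 0.05004% in leaf 2 and 0.0277% in leaf 1. The part of this shift of both organelles in the locus results below was not tested.

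ATMG00030, a locus of 324 bases with no name in the sources used, was the most counted locus of the set, with 1600 and 4699 pairs in flower bud 1 and 2, and 1108, 2763, 362 and 596 pairs in leaf 1 to 4. It took 28.4% and 33.5% of mitochondrial pairs in flower bud 1 and 2, and 19.0% to 29.2% in the leaf samples. The 5 most counted loci of a sample held 41.2% to 47.5% of its mitochondrial pairs. Per kb of counted length, ATMG00030 averaged 36.7 CPM per kb over the 6 samples. The next loci were atp9 at 3.71, ATMG01370 at 2.70, ATMG00660 at 2.58, ATMG01330 at 2.29 and ATMG00280 at 1.89 CPM per kb. ATMG00030 was the single mitochondrial locus above the median of all loci, 5.54 CPM per kb, and the median mitochondrial locus stood at 0.154 CPM per kb. Spearman's rho of pair counts between 2 samples over the 122 loci was 0.72 to 0.94, and these loci share libraries and length. Loci with at least 1 pair numbered 107 and 118 in flower bud 1 and 2, against 94, 114, 81 and 96 in leaf 1 to 4, so leaf 1 detected fewer than leaf 2 although it was sequenced deeper. At 0 pairs in all libraries stood 2 loci. One was nad5 part 2 (ATMG00665), whose counted length of 22 bases leaves little room for a read pair, so its 0 gives no level. For the other, of 360 bases, a count of 0 allows up to 0.0111 CPM in the deepest sample and 0.085 CPM in the shallowest.

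Among subunits of the ATP synthase, the enzyme that makes ATP from the proton gradient, atp9 encodes a subunit of the membrane ring and atp1 the alpha subunit of the catalytic head. The level of atp9 was 2.31 and 3.95 CPM per kb in flower bud 1 and 2, and 1.47, 7.52, 2.81 and 4.21 CPM per kb in leaf 1 to 4. The level of atp1 was 0.640 and 1.32 CPM per kb in flower bud 1 and 2, and 0.661, 2.85, 1.38 and 1.85 CPM per kb in leaf 1 to 4. For atp9 both bud values lay within the range of the leaf samples, and for atp1 flower bud 2 did, while flower bud 1 lay just below leaf 1. The other subunits averaged 1.23 (atp4), 0.947 (atp8) and 0.583 (atp6-1) CPM per kb over the 6 samples. Named ATP synthase loci took 12.4% and 10.2% of mitochondrial pairs in flower bud 1 and 2, and 12.4% to 17.6% in the leaf samples.

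Complex I passes electrons from NADH to ubiquinone, and its levels overlapped those of the ATP synthase loci. The highest of its named loci was nad9, with 1.13 and 2.17 CPM per kb in flower bud 1 and 2, and 0.644, 1.29, 1.24 and 1.34 CPM per kb in leaf 1 to 4. On average over the samples, nad3 had 0.905, nad7 0.845, nad4 0.771, nad2 part B 0.329 and nad5 part 1 0.256 CPM per kb. The lowest named complex I locus with pairs was nad1 part A, which is 1 of several trans-spliced pieces of its gene, at 0.136 CPM per kb on average. Cytochrome b (cob), the complex III subunit, had 0.105 and 0.362 CPM per kb in flower bud 1 and 2, and 0.0562, 0.278, 0.527 and 0.382 CPM per kb in leaf 1 to 4. The complex IV subunits cox2, cox1 and cox3 averaged 1.13, 1.07 and 0.331 CPM per kb over the samples.

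Cytochrome c maturation proteins attach haem to cytochrome c, and ccmB was highest among them at 0.727 CPM per kb on average, followed by ccmFC at 0.418, ccmFN2 at 0.132, ccmFN1 at 0.103 and ccmC at 0.0955. Ribosomal protein loci ran from rpl16 at 1.73 to rps7 at 0.157 CPM per kb on average, with rps3 at 0.978 and rps4 at 0.232. The level of rps12 was 0.387 and 1.12 CPM per kb in flower bud 1 and 2, and 0.283, 1.26, 2.85 and 3.23 CPM per kb in leaf 1 to 4, so that leaf 3 and 4 stood above the other samples.

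**Figure D2:**
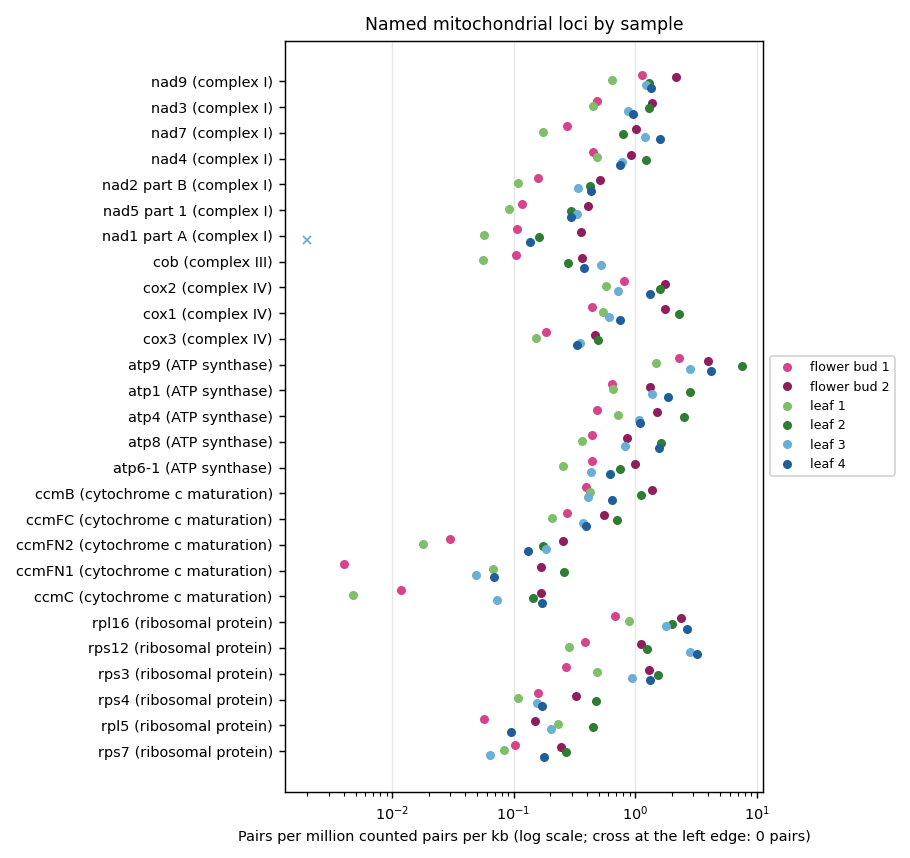
Level of each named mitochondrial locus with pairs, in CPM per kb of counted length on a log scale, grouped by role and coloured by sample; a cross marks 0 pairs. The samples of a tissue lie apart at most loci, with flower bud 1 and leaf 1 mostly at the low end, and atp9 is the highest named locus at 3.71 CPM per kb on average.

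Flower buds were then compared with leaves locus by locus in an edgeR quasi-likelihood fit of all loci with tissue and sequencer as terms, in which the tissue difference rests on the HiSeq2000 samples. Of the 122 mitochondrial loci, 88 passed the filter on low counts. None was called higher in flower buds and 3 were called lower, at a Benjamini-Hochberg adjusted p under 0.05 over all 24043 loci tested; of all loci, 30.5% were called higher and 20.9% lower. At an unadjusted p under 0.05 the same fit also gave 3 of the 88 mitochondrial loci. A share of 0.05 of tested loci would pass that cutoff without any difference, and 3 of 88 is below it. DESeq2 called 0 mitochondrial loci higher and 2 lower, against 7331 of all 24043 loci higher and 5579 lower. The median log2 fold change was -0.34 over the tested mitochondrial loci and 0.15 over all loci. The median standard error of a mitochondrial locus was 0.84 on the log2 scale, so that most single differences were not detectable at this spread.

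**Figure D3:**
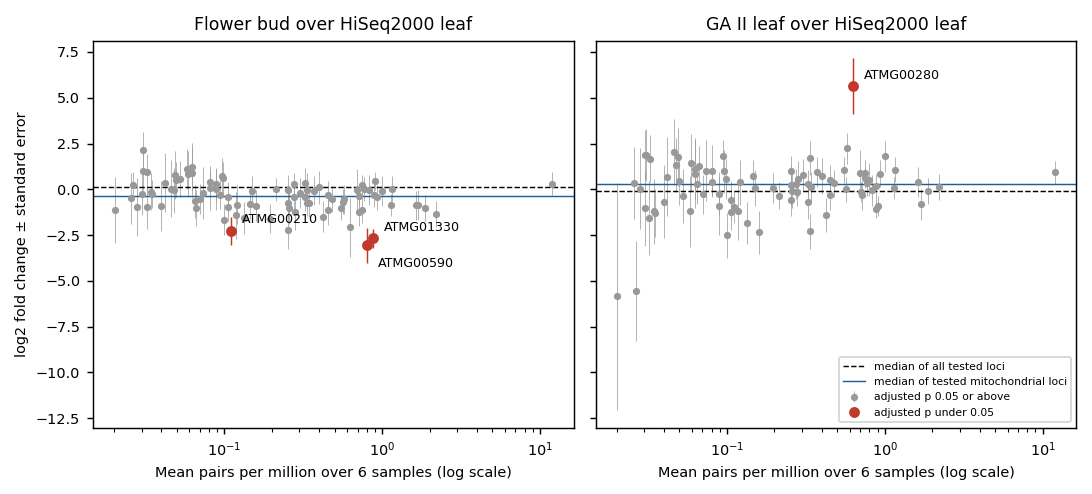
log2 fold change with its standard error against mean CPM (log scale) for the 88 tested mitochondrial loci, for flower bud over HiSeq2000 leaf (left) and GA II leaf over HiSeq2000 leaf (right); red points passed an adjusted p of 0.05. ATMG01330, ATMG00590 and ATMG00210 lie below the rest on the left, and ATMG00280 lies at 5.64 on the right.

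ATMG01330 has no name in the sources used, and RefSeq lists a nuclear pseudogene of it. It had 0.366 and 0.373 CPM in flower bud 1 and 2, and 0.985, 2.23, 0.623 and 0.690 CPM in leaf 1 to 4. Both bud samples lay below all 4 leaf samples. Its log2 fold change was -2.67 ± 0.51 (SE; adjusted p = 0.00497).

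ATMG00590 is noted in RefSeq as a cytochrome b/b6 protein. It had 17 and 58 pairs in flower bud 1 and 2, and 81, 391, 32 and 57 pairs in leaf 1 to 4, which is 0.0778 and 0.267 CPM in the buds and 0.299, 1.74, 0.906 and 1.51 CPM in the leaves. Bud values lay below leaf values in every sample, and its log2 fold change was -3.06 ± 0.96 (SE; adjusted p = 0.0331). Its nuclear copy AT2G07718, of the same 942 bases, had 9 and 46 pairs in flower bud 1 and 2, and 69, 291, 20 and 48 pairs in leaf 1 to 4. The copy also fell, by 3.1 on the log2 scale (SE 1.04; adjusted p = 0.0420). The copy missed the threshold in 8 of 18 alternative settings. Which of the 2 loci the reads came from cannot be told apart. Without leaf 2 the value for ATMG00590 was -1.50 (adjusted p = 0.147), and without flower bud 1 it was -2.47 (adjusted p = 0.163). It also missed the threshold without flower bud 2 (adjusted p = 0.0537) and with the HiSeq2000 samples alone (adjusted p = 0.0522), 4 of 18 settings in all.

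The third locus, rpl5 (ATMG00210), encodes a protein of the large ribosomal subunit. It had 7 and 18 pairs in flower bud 1 and 2, and 35, 57, 4 and 2 pairs in leaf 1 to 4. In CPM the buds had 0.0320 and 0.0828 and the leaves 0.129, 0.253, 0.113 and 0.0531, so the tissues overlapped through leaf 4. Its log2 fold change was -2.26 ± 0.76 (SE; adjusted p = 0.0415), and it missed the threshold in 13 of 17 alternative settings, among them each fit without a single sample other than leaf 1. Its nuclear copy AT2G07725 had a log2 fold change of -0.83 (SE 0.73; adjusted p = 0.374).

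By role, no named locus of the ATP synthase, complex I, complex III, complex IV or cytochrome c maturation was called in either direction. Without leaf 1, however, the ATP synthase loci atp1 (-2.02), atp9 (-1.75) and atp8 (-1.83) were called lower. So were rpl5 (-2.60) and loci without a name here, such as ATMG01120 (-2.96). Among these was ATMG01090 (-2.29), which RefSeq notes as mitochondrial ATP synthase 9. That fit has leaf 2 as its only HiSeq2000 leaf, and its median was -0.97 over mitochondrial loci and 0.22 over all loci. The fall was thus shared by rpl5 and loci without a name. Whether ATP synthase loci fell more than other mitochondrial loci was not tested. Without flower bud 2, ccmFN1 was called at -5.64 (adjusted p = 0.0499). The median log2 fold change was -1.15 over 5 ATP synthase loci, -0.08 over 7 complex I loci, -0.51 over 3 complex IV loci, -0.33 over 5 cytochrome c maturation loci and -0.66 over 6 ribosomal protein loci. Over the 27 named loci tested the fitted difference was negative in 23, and 1 of them, rpl5, was called. Of the 61 tested loci without a name it was negative in 37, and of all 88 tested mitochondrial loci in 60. The fit with tissue and sequencer as terms called 30.5% of all loci higher and 20.9% lower. Whether named loci fell more than the other mitochondrial loci was not tested. Scaled by library size alone, the median over all loci was 0.74 and that over the mitochondrial loci 0.19, so the sign of the mitochondrial median depends on the scaling. Without flower bud 1 the median was 0.12 over mitochondrial loci and 0.06 over all loci, and without leaf 2 it was 0.59 and 0.19, so the order of the medians turned in both.

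**Figure D4:**
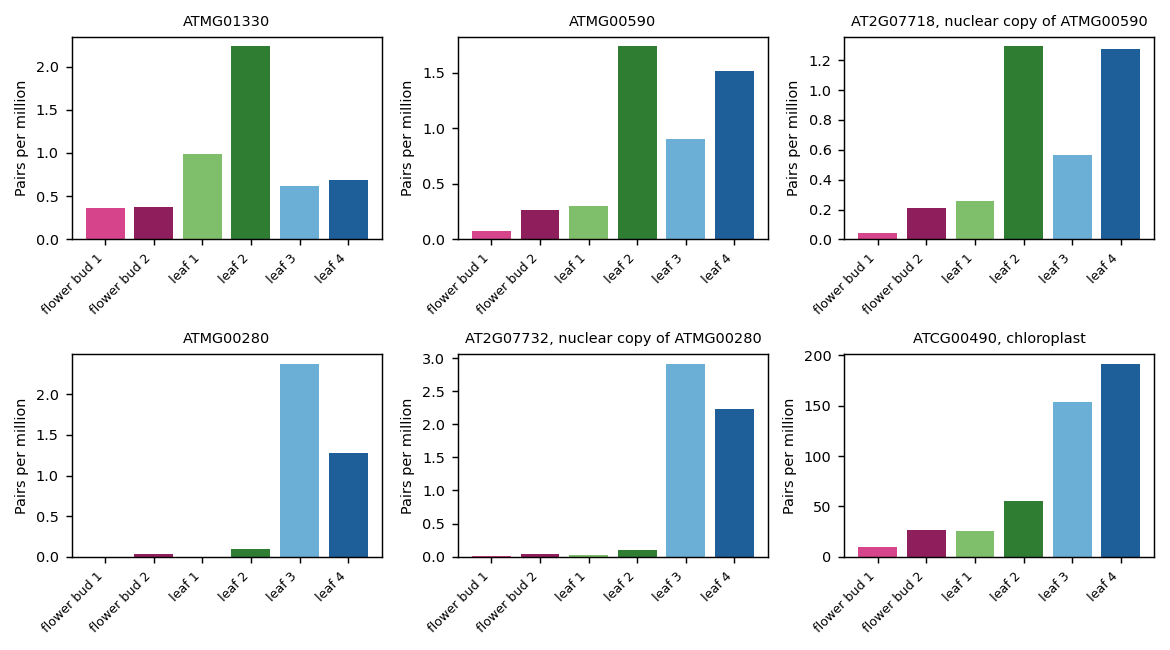
CPM in each sample for ATMG01330, ATMG00590 with its nuclear copy, and ATMG00280 with its nuclear copy and the chloroplast locus ATCG00490; bars are single samples with runs summed. ATMG01330 is lowest in the 2 flower bud samples, and ATMG00280 reaches 2.38 and 1.27 in leaf 3 and 4.

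The GA II leaf samples were compared with the HiSeq2000 leaf samples in the same fit, where instrument and sample cannot be told apart. One mitochondrial locus was called higher and none lower, against 12.1% of all loci called higher and 15.2% lower. At an unadjusted p under 0.05 there were 3 of the 88 tested mitochondrial loci, again below a share of 0.05. DESeq2 called 2 mitochondrial loci higher and 0 lower, and gave no adjusted p for 11 of the 88. Of all 24043 loci it called 4250 higher and 4391 lower. The median log2 fold change was 0.29 over mitochondrial loci and -0.07 over all loci.

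The called locus, ATMG00280, is noted in RefSeq as a catalytic domain of the large chain of Rubisco, the carbon-fixing enzyme whose large chain is encoded in the chloroplast. It had 84 and 48 pairs in leaf 3 and 4, against 0 and 20 pairs in leaf 1 and 2, and 0 and 6 pairs in flower bud 1 and 2. This is 2.38 and 1.27 CPM in leaf 3 and 4, against 0.0888 CPM in leaf 2. Its log2 fold change was 5.64 (adjusted p = 0.0339). Its nuclear copy AT2G07732 had 103 and 84 pairs in leaf 3 and 4, against 5 and 24 in leaf 1 and 2, with a log2 fold change of 5.62 (SE 0.94; adjusted p = 0.00858). The chloroplast locus ATCG00490, whose length of 1440 bases is that of rbcL in RefSeq, had 154 and 192 CPM in leaf 3 and 4, against 25.2 and 55.5 CPM in leaf 1 and 2. For each 1000 pairs of ATCG00490, ATMG00280 had 15.5 and 6.64 pairs in leaf 3 and 4, against 0 and 1.60 in leaf 1 and 2. The call was lost when leaf 3, leaf 4, flower bud 1 or flower bud 2 was left out, which leaves 1 sample in a group. Without leaf 3 or leaf 4, far fewer of all loci were called as well. With 1 sample left out, the log2 fold change of ATMG00280 ran from 4.64 to 11.7.

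Multiplex runs were compared with HiSeq runs of the same samples, with the sample as a block. No mitochondrial locus was called among 70 tested, and edgeR called 0% of all loci in either direction. At an unadjusted p under 0.05 there were 3 mitochondrial loci, and the smallest adjusted p among them was 0.271.

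Nuclear copies named in RefSeq notes were measured for 42 mitochondrial loci. The 43 copies held 1973 and 3763 pairs in flower bud 1 and 2, and 1508, 5321, 509 and 719 pairs in leaf 1 to 4. For each pair on the mitochondrial loci that have a copy, the copies held 1.09 to 1.36 pairs in the 6 samples. For the 10 copies of the same length with 40 or more mitochondrial pairs, the ratio ran from 0.384 to 1.57 with a median of 0.792. Summed over loci and without adjustment for length, the copies held somewhat more pairs than their mitochondrial counterparts in every sample. Only 17 of the 43 copies had the counted length of their locus, and the same-length median of 0.792 went the other way. Of 36 copies tested, 1 was called lower in flower buds and none higher, with a median log2 fold change of -0.44, against 20.9% called lower and 30.5% higher among all loci; the one called was AT2G07718.

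Most proteins that work with these gene products are nuclear, and 2 lists of them were set beside the mitochondrial loci. Of 39 tested genes for respiratory chain proteins, 4 were called higher in flower buds and 3 lower, with a median log2 fold change of 0.25. Alternative oxidases made up 2 of the 4 and 2 of the 3. No nuclear gene of complex I, complex IV or the ATP synthase in the list was called. Of 26 genes of mitochondrial gene expression and membrane porins, 8 were called higher and 1 lower, with a median of 0.48. Among all loci, 30.5% were called higher and 20.9% lower, so the share called higher in the second list is near that background. Both shares of the first list are below it.

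The alternative oxidases, which pass electrons from ubiquinone to oxygen without pumping protons, changed in opposite directions. AOX1B had 1709 and 956 pairs in flower bud 1 and 2, against 2 pairs in leaf 1 and 0 in leaf 2, 3 and 4. Over the HiSeq2000 samples its CPM was 1518 times higher in buds, with an exact 95% counting interval of 420 to 12541. AOX1C had 2.66 and 2.89 CPM in flower bud 1 and 2, and 0.229, 0.444, 0.765 and 0.345 CPM in leaf 1 to 4, a log2 fold change of 2.49 ± 0.54 (SE; adjusted p = 0.00845). AOX1A, the main stress-responsive form, had 19.2 and 22.2 CPM in the buds and 92.4, 97.4, 53.7 and 47.8 CPM in leaf 1 to 4, a log2 fold change of -2.78 ± 0.25 (SE; adjusted p = 0.000296). AOX1D had 5 and 3 pairs in the buds, 264 and 498 pairs in leaf 1 and 2, and 0 in leaf 3 and 4, with a log2 fold change of -6.93 ± 0.76 (SE; adjusted p = 0.00099). Without the sequencer term AOX1D missed the threshold (adjusted p = 0.104).

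Among genes of mitochondrial gene expression, 6 of 15 splicing and editing genes were called higher and none lower, against 30.5% and 20.9% of all loci. Without the sequencer term, which sets the buds against all 4 leaf samples, 1 of the 15 was called higher. Calls over all loci fell as well, to 4796 of 24043 higher without the term from 7322 with it. SLO1, a pentatricopeptide repeat protein of RNA editing, had 6.44 and 4.81 CPM in flower bud 1 and 2, and 0.609, 0.972, 2.32 and 3.61 CPM in leaf 1 to 4, a log2 fold change of 2.26 ± 0.41 (SE; adjusted p = 0.00418). Without the sequencer term it was 0.85 (adjusted p = 0.449). The 2 RNA decay and processing genes went apart. AT5G14580, annotated in RefSeq as a polyribonucleotide nucleotidyltransferase, the enzyme class that degrades polyadenylated organelle RNA, had 8.53 and 12.2 CPM in flower bud 1 and 2, and 1.28, 4.01, 10.8 and 11.2 CPM in leaf 1 to 4. It was named after its values were seen. It rose by 1.44 on the log2 scale (SE 0.49; adjusted p = 0.0456), but without the sequencer term the value was -0.12 (adjusted p = 0.934), and leaf 3 and 4 overlapped the buds. It missed the threshold in 8 of 18 settings. EMB2730, an exoribonuclease also called RNR1, fell by 1.08 on the log2 scale (SE 0.30; adjusted p = 0.0212), with 20.5 and 33.5 CPM in the buds and 37.5, 39.0, 42.9 and 46.2 CPM in leaf 1 to 4. Scaled by library size alone its change was -0.50 (adjusted p = 0.182), and it missed the threshold in 5 of 18 settings.

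**Figure D5:**
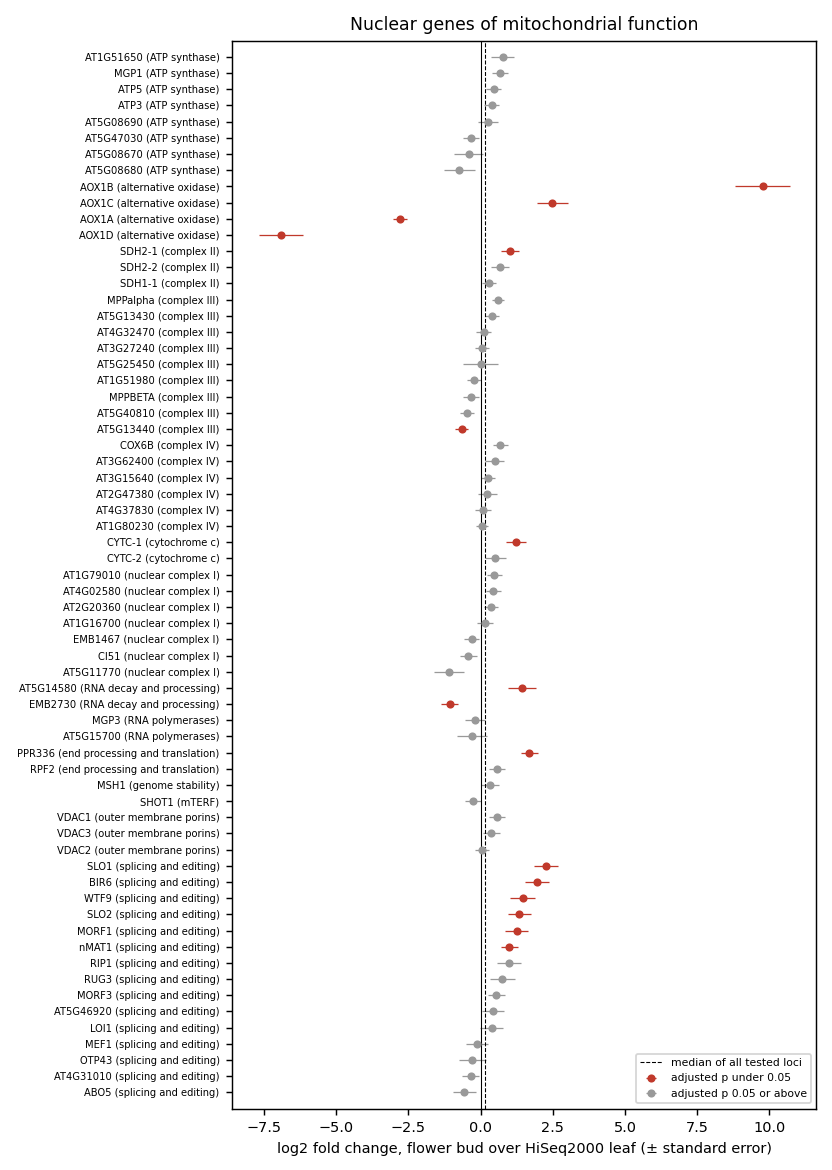
log2 fold change of flower bud over HiSeq2000 leaf with its standard error for nuclear genes of mitochondrial function, ordered by sub-list; red points passed an adjusted p of 0.05. The alternative oxidases span from -6.93 for AOX1D to 9.76 for AOX1B, and 6 of 15 splicing and editing genes passed the threshold above 0.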

How the data were processed

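Bowtie2 2.0 is named in the submitters' processing notes. Build, annotation, multi-mapping and strand: not given in the sources used here, so no coordinates or sequences are printed. Per the file headers, the authors deposited raw counts of proper pairs, single reads and pairs within an insert limit, and each locus length. Runs of a sample were summed, and all loci were fitted with edgeR version 4.0.16 under R 4.3.3 (TMM, filterByExpr with minimum count 10, quasi-likelihood test, Benjamini-Hochberg), checked on simulated data. Standard errors are the log2 fold change divided by the root of F. CPM use the raw total of counted pairs, untouched by TMM. A count of 0 allows 3 pairs, 0.0111 to 0.085 CPM per sample. Exact intervals cover counting error. Text names all loci paired with a gene by role, the 5 unnamed loci highest per kb, and called loci with the largest changes (3 each way; likewise nuclear genes). Alternatives included DESeq2 1.42.0. The members and lists were chosen with earlier results of these data known.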

Additional observations from a re-analysis of the deposited data

Results flagged for a closer look

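Among 42 values looked at in the 4 leaf samples, 6 had 1 sample far from the other 3. Chance gives about 1 in 20 such groups where values are independent. Mitochondrial loci shared a low leaf 1 and a high leaf 2, so the 6 cannot be set against that rate. The distance was the gap to the nearest neighbour as a share of the whole range. That share was 0.847 for nad9 (ATMG00070), with leaf 1 low, 0.837 for nad5 part 1 (ATMG00513), with leaf 1 low, and 0.8293 for rps4 (ATMG00290), with leaf 2 high. It was 0.905 for ccmFN1 (ATMG00830) and 0.878 for cox1 (ATMG01360), both with leaf 2 high. For AOX1B (AT3G22360) it was 1, since leaf 1 held 2 pairs and the others 0. Those 2 pairs are fewer than the 3 that a count of 0 allows.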

How the results depend on the processing

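Counts of called mitochondrial loci between tissues stayed at 0 higher and 2 or 3 lower in most settings. Library size alone gave 1 higher, and the HiSeq2000 samples alone gave 1 lower. Leaving out 1 sample gave 0 to 2 higher and 1 to 9 lower, the 9 without leaf 1. The median log2 fold change of mitochondrial loci ran from -1.44 without flower bud 2 to 0.59 without leaf 2. ATMG01330 stayed called in all 18 alternatives, with adjusted p from 8.4e-06 to 0.0432; ATMG00590 ranged from 0.00485 to 0.163. Between GA II and HiSeq2000 leaf samples, DESeq2 and the multiplex runs each gave 2 higher; leaving out 1 sample gave 0 to 3 higher and 0 to 3 lower, the 3 higher without leaf 2 and the 3 lower without leaf 1. The share of mitochondrial pairs in flower buds against leaves turned to -0.65 without flower bud 2, -0.36 without leaf 1 and -0.13 without ATMG00030 on the log2 scale, the last chosen after seeing the data; leaving out 1 sample spanned -0.65 to 0.67. Nuclear genes for respiratory subunits called higher were 7 with upper quartile factors, 7 with DESeq2, 19 with library size alone and 2 with the HiSeq2000 samples alone, and called lower 1 without the sequencer term. Genes of mitochondrial gene expression called higher were 14 with library size alone, 2 without the sequencer term and 3 with the HiSeq2000 samples alone, and called lower 0 with library size alone and with the HiSeq2000 samples alone. Counts over all loci between the tissues moved too. Called higher were 8373 of 24043 with upper quartile factors, 7331 with DESeq2, 10405 with library size alone and 4796 without the sequencer term. Called lower were 2991 with library size alone and 2397 without the sequencer term. The HiSeq2000 samples alone called 6379 of 23841 higher and 3888 lower. The fit with tissue and sequencer as terms called 7322 higher and 5017 lower. Leaving out 1 sample gave 2 to 9 higher and 2 to 5 lower for the first list, and 2 to 11 higher and 0 to 1 lower for the second. AT5G14580 turned to -0.12 without the sequencer term. The cause of these changes was not tested. The replicate block over the HiSeq2000 samples called 0 mitochondrial loci higher and 2 lower; the labels do not say that numbers pair samples, and the deviations of flower bud 1 and leaf 1 correlated at 0.246 over 24043 loci.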
